A study of Arabidopsis thaliana with 8 samples.

Results

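Gene expression was compared across the genome between shoots of the root meristemless1 (rml1) mutant of Arabidopsis thaliana and shoots of the Columbia-0 wild type. All entries of the expression table were averaged by locus, which gave 29920 loci, and the comparison used 6 of the 8 tiling arrays of the study, 3 of rml1 shoots and 3 of wild type shoots. The rml1 shoot samples pooled 61, 65 and 108 shoots, and each wild type shoot sample pooled 30. The other 2 arrays were 1 of rml1 roots (234 roots) and 1 of wild type roots (90 roots), and they entered no test. Seedlings of both genotypes were 7 days old and grew under the same conditions, on vertical plates with 1 mM KNO3 and 0.5% sucrose, at 20 °C, a light intensity of 150 µmol per square metre per second and a photoperiod of 16 h. The rml1 lesion lies in GSH1, the gene of glutamate-cysteine ligase, and is present in every organ, so the mutant shoots grew on plants whose root is arrested. Each value is an average over whole pooled shoots, in which fewer cells of a type and less RNA per cell cannot be told apart.

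A young Arabidopsis seedling first lives on seed oil, which peroxisomes break down by beta-oxidation and the glyoxylate cycle turns into sugar, and it silences this route once its leaves photosynthesise. Leaf cells store part of the carbon they fix as starch by day, break the starch down at night, and switch a set of starvation genes according to their sugar supply. Shoots also hold enzymes that modify reactive and foreign compounds, regulators of iron and copper, and wall-loosening enzymes and water channels that serve growth, and each of these systems is described below beside the response of all loci.

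Levels are log2 values, so a difference of 1 is a 2-fold change. Differences are rml1 minus wild type, and a locus is said to have risen or fallen where limma gave a Benjamini-Hochberg adjusted p under 0.05. GSH1 itself was at 8.80, 8.61 and 8.96 on the rml1 arrays and at 8.45, 8.19 and 8.11 on the wild type arrays. Its rise of 0.54 (SE 0.13, adjusted p = 0.0243) missed the threshold when rml1 replicate 1 or 3 or wild type replicate 2 or 3 was left out. A lesion that leaves the transcript in place cannot be read from its level, so this does not check the genotype labels. The labelled organ was borne out on all 6 arrays. The median of 16 antenna genes, which serve light capture, was 12.4 on each rml1 shoot array and 12.5 on each wild type shoot array, against 7.98 in the rml1 root and 7.3 in the wild type root. The median of 8 genes of the Casparian strip, the root's barrier layer, was between 4.78 and 5.02 on the rml1 shoot arrays and between 4.59 and 4.64 on those of the wild type, against 6.42 in the rml1 root and 8.4 in the wild type root. In that list 2 of 8 genes rose in rml1 shoots, among them PER64, a peroxidase of the strip (0.90, SE 0.16), as did 1 of 5 root meristem markers, and 1 of 7 root hair markers fell. These shares of 25%, 20% and 14.3% were near or below the 30.2%, 19.8% and 16.1% of all loci called at the same levels. The part of root cells in other results was not tested. The first principal component held 68.2% of the variance and set the genotypes apart. On it the rml1 arrays lay at -43.2, -36.6 and -52.9 and the wild type arrays at 45.8, 40.1 and 46.9. The second component held 10.4% and ran mainly among the wild type arrays, with replicate 1 at -32.4, replicate 2 at 7.81 and replicate 3 at 23.0.

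Many loci differed between rml1 and wild type shoots, most of them by less than 2-fold. Of 29920 loci, 7138 (23.9%) passed, 3970 up (13.3%) and 3168 down (10.6%). At least 2-fold changes were found at 1446 loci (4.83%), 797 up (2.66%) and 649 down (2.17%), although under quantile normalization of the arrays the falls outnumbered the rises in this class, 702 up and 734 down. There were 157 rises and 123 falls of at least 4-fold, 47 and 31 of at least 8-fold, 15 and 6 of at least 16-fold, and 7 and 2 of at least 32-fold. The 3 rml1 values did not overlap the 3 wild type values at 12595 loci (42.1%), with rml1 higher at 6542 (21.9%) and lower at 6053 (20.2%). Rml1 replicate 3, the pool of 108 shoots, lay farthest from the wild type mean at 905 of the 1446 loci (62.6%), and rml1 replicate 2 lay nearest at 924 (63.9%). Without rml1 replicate 3 the calls numbered 4508, of which 2526 were up and 1982 down, and 1291 loci still passed with at least 2-fold changes. The median SD over replicates was 0.124 among rml1 arrays and 0.139 among wild type arrays.

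**Figure D1:**
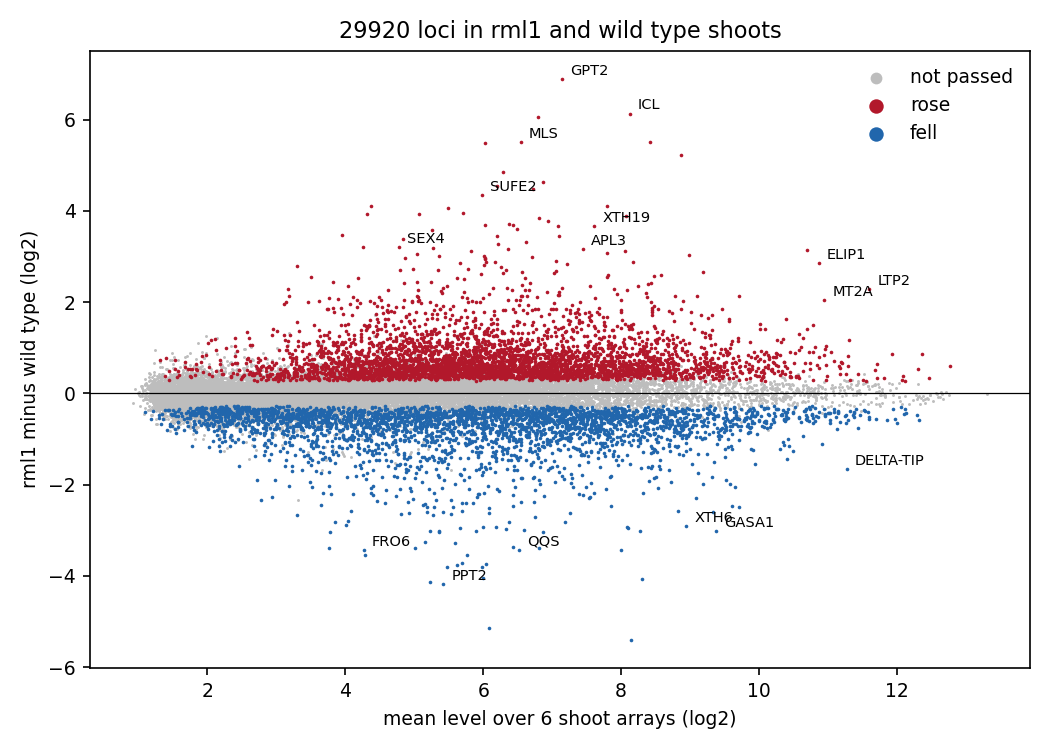
Each point is 1 of 29920 loci, with its mean level over the 6 shoot arrays (log2) on the horizontal axis and the rml1 minus wild type difference (log2) on the vertical axis. Red loci rose, blue loci fell and grey loci did not pass; GPT2 and ICL stand at the top, and the named falls include PPT2, QQS and FRO6.

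The response was spread over the genome and leaned on loci with high array levels. When loci were ranked by mean level and split into 10 equal classes, 1.64% passed in the lowest class and 53% in the highest. In the 5 lowest classes falls outnumbered rises, with 12 rises and 37 falls in the lowest. In the 5 highest classes rises outnumbered falls, with 512 rises and 338 falls in the sixth and 850 rises and 735 falls in the highest. The lower quartile of all loci was 2.15 to 2.24 on the rml1 arrays and 2.28 to 2.37 on the wild type arrays, and the upper quartile was 6.04 to 6.10 on the rml1 arrays and 5.90 to 5.97 on the wild type arrays. The part of this difference in array distributions in the split between rises and falls was not tested beyond the normalization settings given in the closing section. On the 5 nuclear chromosomes 22.7% to 24.9% of loci passed. Protein-coding loci passed at 26.9% (3897 up and 3011 down of 25663), and the 2585 loci annotated as pseudogenes at 2.9% (10 up and 65 down). The median level of the pseudogene loci was 1.73 in rml1 and 1.82 in the wild type. These medians lie in the second lowest class of level, where 2.91% of all loci passed, so their low share went with their low level.

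**Figure D2:**
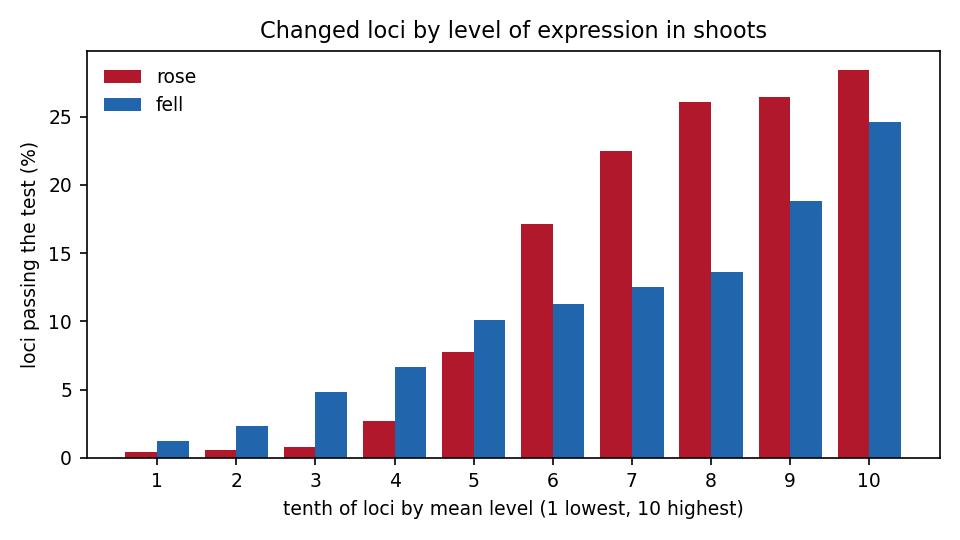
Bars give the percentage of loci that rose (red) or fell (blue) in each of 10 equal classes of loci ordered by mean level over the 6 shoot arrays. In the lowest class 0.401% rose and 1.24% fell, and in the highest 28.4% rose and 24.6% fell.

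Most genes listed for the route from fat to sugar rose in rml1 shoots. All 8 genes listed for the glyoxylate cycle and gluconeogenesis passed, 7 up and 1 down, with a median difference of 2.61, while the median over all loci was -0.0316. At the same levels 48.4% of all loci were called. Beside ICL and MLS, the 2 enzymes particular to the cycle, which rose by 6.13 (SE 0.18) and 5.50 (SE 0.24), the genes around them moved too. PPDK, pyruvate orthophosphate dikinase, was at 7.44, 7.31 and 7.68 in rml1 and at 4.74, 4.61 and 4.48 in the wild type, a rise of 2.87 (SE 0.13, adjusted p = 9.95e-05). The lowest rml1 shoot sample was more than 2 log2 units above the highest wild type sample. PCK1, which makes phosphoenolpyruvate for sugar synthesis, stood at 9.81, 9.37 and 10.14 in rml1 and at 7.01, 7.47 and 7.10 in the wild type (2.58, SE 0.21). CSY3, a peroxisomal citrate synthase, was at 8.30, 7.92 and 8.80 in rml1 and at 5.60, 5.80 and 5.72 in the wild type (2.64, SE 0.21). In both genes rml1 replicate 3 was the highest and rml1 replicate 2 the lowest of the mutant samples, and the genotypes did not overlap. The peroxisomal malate dehydrogenases split, with PMDH1 up by 1.67 (SE 0.15) and PMDH2 down by 0.50 (SE 0.12). With rml1 replicate 1 left out PMDH2 no longer passed (adjusted p = 0.058), nor with rml1 replicate 3 left out (adjusted p = 0.0798).

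Of 11 genes of peroxisomal fatty acid beta-oxidation, 10 rose, 9 of them at least 2-fold, with a median of 1.46. The share called was 90.9%, against 43.8% of all loci at the same levels. MFP2, the multifunctional protein of the cycle, was at 7.72, 7.30 and 8.21 in rml1 and at 5.36, 5.31 and 5.43 in the wild type (2.38, SE 0.21, adjusted p = 0.000564). LACS7, a peroxisomal acyl-CoA synthetase that activates fatty acids, was at 6.85, 6.60 and 6.99 in rml1 and at 4.97, 4.49 and 4.72 in the wild type (2.09, SE 0.16). Neither gene overlapped between the genotypes. The first oxidation step rose with the acyl-CoA oxidases ACX2 (1.82, SE 0.14), ACX1 (1.51, SE 0.16) and ACX3 (1.32, SE 0.27), and the last with the thiolases PKT3 (1.82, SE 0.19) and KAT5 (1.46, SE 0.16). Markers of the seed itself did not move upward with them. Of 16 genes for storage proteins and seed maturation none rose and 1 fell with limma, none had a positive difference at an unadjusted p under 0.05, and their median level was 2.51 to 2.83 on the rml1 arrays and 2.87 to 3.23 on the wild type arrays. At the same levels 5.02% of all loci rose and 7.65% fell.

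Genes that plants switch on when sugar is short were lower in rml1. Of 14 sugar-repressed and starvation genes, 9 fell and 1 rose, with a median of -0.74. The share that fell was 64.3%, against 14.8% of all loci at the same levels. ASN1, the asparagine synthetase of darkened leaves, was at 3.44, 3.93 and 3.44 in rml1 and at 6.57, 5.79 and 6.35 in the wild type (-2.63, SE 0.23, adjusted p = 0.000497). DIN10, a dark-induced raffinose synthase-like gene, was at 4.60, 5.0 and 4.70 in rml1 and at 7.66, 7.24 and 7.30 in the wild type (-2.63, SE 0.15). Every rml1 sample lay below every wild type sample for both genes. BXL1, a beta-xylosidase, fell by 1.77 (SE 0.11), the hexose transporter STP1 fell by 1.13 (SE 0.12), AKINBETA1, a subunit of the SnRK1 starvation kinase, fell by 1.13 (SE 0.13), and TPS8, of the trehalose-6-phosphate synthase family, fell by 1.04 (SE 0.13). DIN2 was the member with a rise (0.52, SE 0.14), which no longer passed when an array was left out (adjusted p between 0.0527 and 0.0838), rml1 replicate 2 excepted.

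Starch genes moved in both directions, by large amounts at single steps. APL3, a large subunit of the ADP-glucose pyrophosphorylase that starts starch synthesis, was at 9.15, 8.61 and 9.30 in rml1 and at 5.95, 5.87 and 5.78 in the wild type, an 8.91-fold rise (3.16, SE 0.18, adjusted p = 0.000184). The leaf isoform APL1 fell by 0.57 (SE 0.12), which no longer passed without rml1 replicate 3 (adjusted p = 0.0516), whereas APL4 rose by 1.21 (SE 0.12) and GBSS1, the amylose synthase, by 0.97 (SE 0.15). In all, 6 of 14 starch synthesis genes rose and 2 fell (57.1% called, against 38% of all loci at the same levels), with a median of 0.24. With 1 array left out these counts were 4 to 6 and 1 to 3, with 1 fall without rml1 replicate 3. Of 11 starch breakdown genes 5 rose and 1 fell (54.5% called, against 30.3% of all loci at the same levels), with a median of 0.57. SEX4, a phosphatase that removes phosphate from starch during breakdown, was at 6.41, 5.96 and 6.78 in rml1 and at 2.99, 3.38 and 3.14 in the wild type, a 9.26-fold rise (3.21, SE 0.21). CT-BMY (AT4G17090), a plastid beta-amylase, was at 6.49, 6.43 and 6.26 in rml1 and at 8.91, 8.67 and 8.49 in the wild type (-2.30, SE 0.13). These steps of the same pathway thus had opposite differences with no overlap between genotypes. QQS, an Arabidopsis-specific gene named for its effect on starch content, was at 4.93, 5.12 and 4.35 in rml1 and at 8.60, 8.22 and 7.89 in the wild type (-3.44, SE 0.24, adjusted p = 0.000287). Sugar facilitators of the SWEET family included 2 rises and 4 falls among 17 (35.3% called, against 24.5% of all loci at the same levels). The lowest difference of the family was -3.81, at a member not described here. SWEET2, which retains sugar in the vacuole, was at 6.79, 6.77 and 6.30 in rml1 and at 9.21, 8.93 and 9.12 in the wild type (-2.46, SE 0.16). SWEET17, a vacuolar fructose facilitator, fell by 2.38 (SE 0.21), while SWEET13, a plasma membrane sucrose facilitator, rose by 1.35 (SE 0.13).

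**Figure D3:**
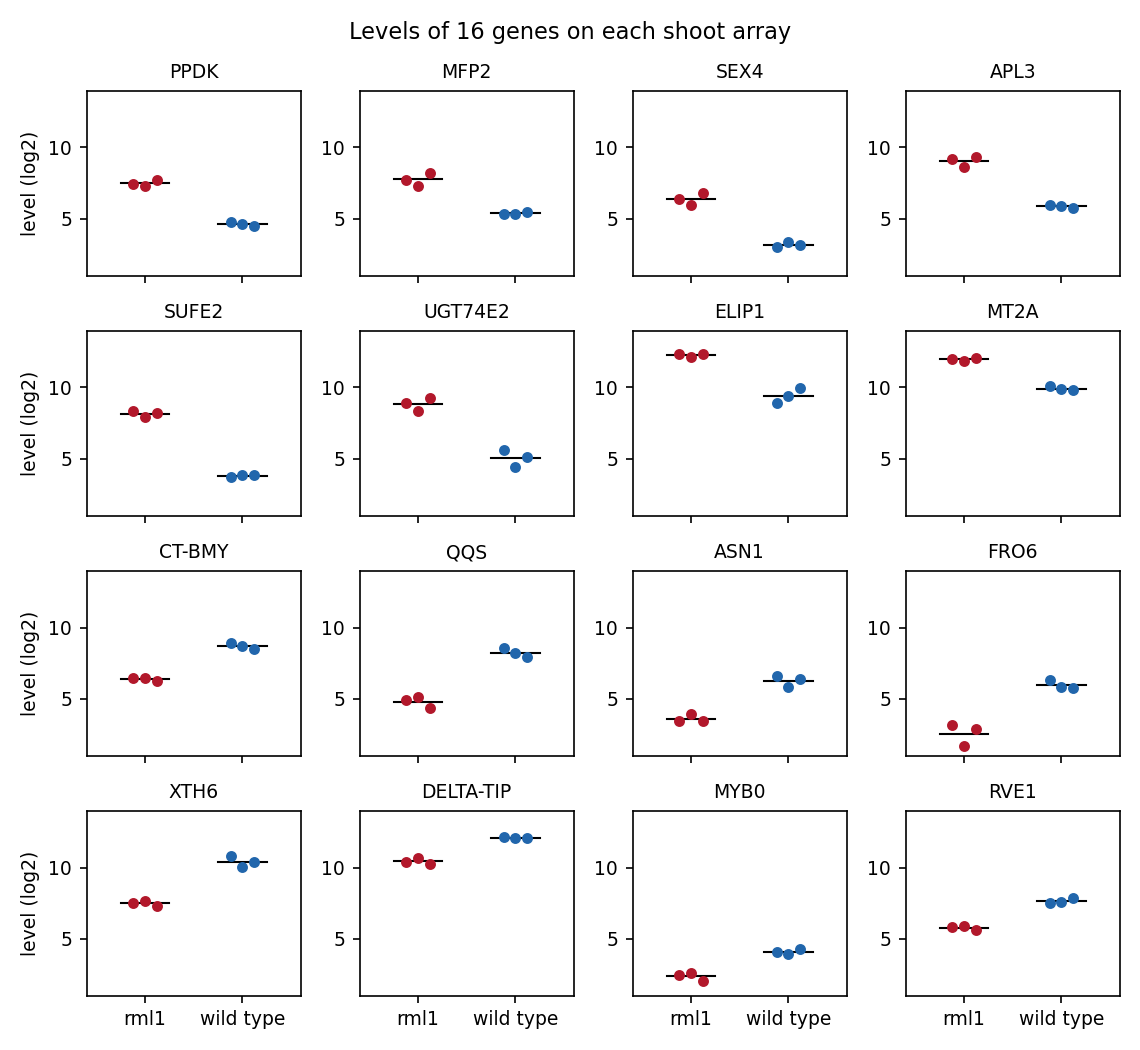
Each panel shows the level (log2) of 1 gene on the 3 rml1 arrays (red, left) and the 3 wild type arrays (blue, right), with a bar at each mean. The first 8 panels show genes that rose and the last 8 genes that fell, and in none of the 16 did the genotypes overlap.

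All 14 genes listed for detoxification and chemical stress rose in rml1, 13 of them at least 2-fold, with a median of 1.96. At the same levels 44.4% of all loci were called. Like the other lists, it was chosen with earlier results of these data known, so its full count is no independent support. Beside enzymes it includes the NAC transcription factors NAC13, NAC102, ATAF1 and NAC032. UGT74E2, a glucosyltransferase induced by oxidative stress, was at 8.88, 8.36 and 9.25 in rml1 and at 5.60, 4.44 and 5.13 in the wild type, a 13.7-fold rise (3.77, SE 0.33, adjusted p = 0.000521). ChlAKR, a reductase of reactive carbonyls in the chloroplast, was at 7.57, 6.99 and 7.98 in rml1 and at 4.28, 4.55 and 4.67 in the wild type (3.02, SE 0.24). The aldo-keto reductase AKR4C8 rose by 2.84 (SE 0.21) and the cytochrome P450 genes CYP81D11 and CYP81D8 by 2.78 (SE 0.15) and 2.22 (SE 0.16). Mutant samples lay above wild type samples at each of these genes, by more than 1 log2 unit. DTX1, an efflux carrier for toxic compounds, was at 7.36, 6.94 and 7.30 in rml1 and at 5.38, 5.41 and 5.34 in the wild type (1.82, SE 0.12). AER, a reductase of reactive alkenals, rose by 1.28 (SE 0.12). Aldehyde dehydrogenases, which oxidise reactive aldehydes, had 9 rises and 1 fall among 14, the fall not passing when any array was left out, led by ALDH7B4 (2.08, SE 0.17) and ALDH3H1 (1.35, SE 0.15), with a family median of 0.58. The share of this family called was 71.4%, against 45.5% of all loci at the same levels. UDP-glycosyltransferases found by symbol had 20 rises and 7 falls among 64 (42.2% called, against 29.6% of all loci at the same levels), and 13 of the rises were at least 2-fold. UGT73B2, a flavonoid glucosyltransferase, rose 7.64-fold (2.93, SE 0.19). The falls of this family numbered 4 without rml1 replicate 1 and 4 without rml1 replicate 3. Neighbouring genes of such families can have near-identical sequences, and whether their probes cross-react was not tested.

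Genes of protein turnover rose by smaller amounts. Of 13 proteasome genes 9 rose (69.2%, against 27.8% of all loci at the same levels), with a median of 0.59. NAC053, a transcription factor that activates proteasome genes, was at 6.22, 6.28 and 6.45 in rml1 and at 5.36, 5.08 and 5.19 in the wild type (1.11, SE 0.11). The lid and base subunits RPN10 and RPT2a rose by 0.92 (SE 0.09) and 0.83 (SE 0.10). Of 13 autophagy genes 7 rose and 1 fell (61.5% called, against 45% of all loci at the same levels), with a median of 0.49. ATG8B, a ubiquitin-like protein that coats autophagosomes, was at 7.58, 7.46 and 7.87 in rml1 and at 5.75, 5.46 and 5.28 in the wild type (2.14, SE 0.16), and NBR1, a receptor for selective autophagy, rose by 0.95 (SE 0.11). Its paralog ATG8E was lower in rml1, at 8.41, 8.61 and 8.43, than in the wild type, at 9.17, 9.22 and 9.10 (-0.68, SE 0.09). ATG8B and ATG8E thus had opposite differences within 1 gene family. Apart from NBR1, all rises of the autophagy list were in ATG8 genes. APG5, APG7 and AtATG18a, which are not of that family, did not pass (0.04, 0.21 and 0.28), nor did ATG8C and APG8A, which are. The list of amino acid breakdown was called at 43.8%, near the 40.5% of all loci at the same levels. Of its 16 genes 6 rose and 1 fell, or 0 fell without rml1 replicate 2 or 3 or wild type replicate 1 or 3, with MGL, methionine gamma-lyase, up by 2.05 (SE 0.15).

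**Figure D4:**
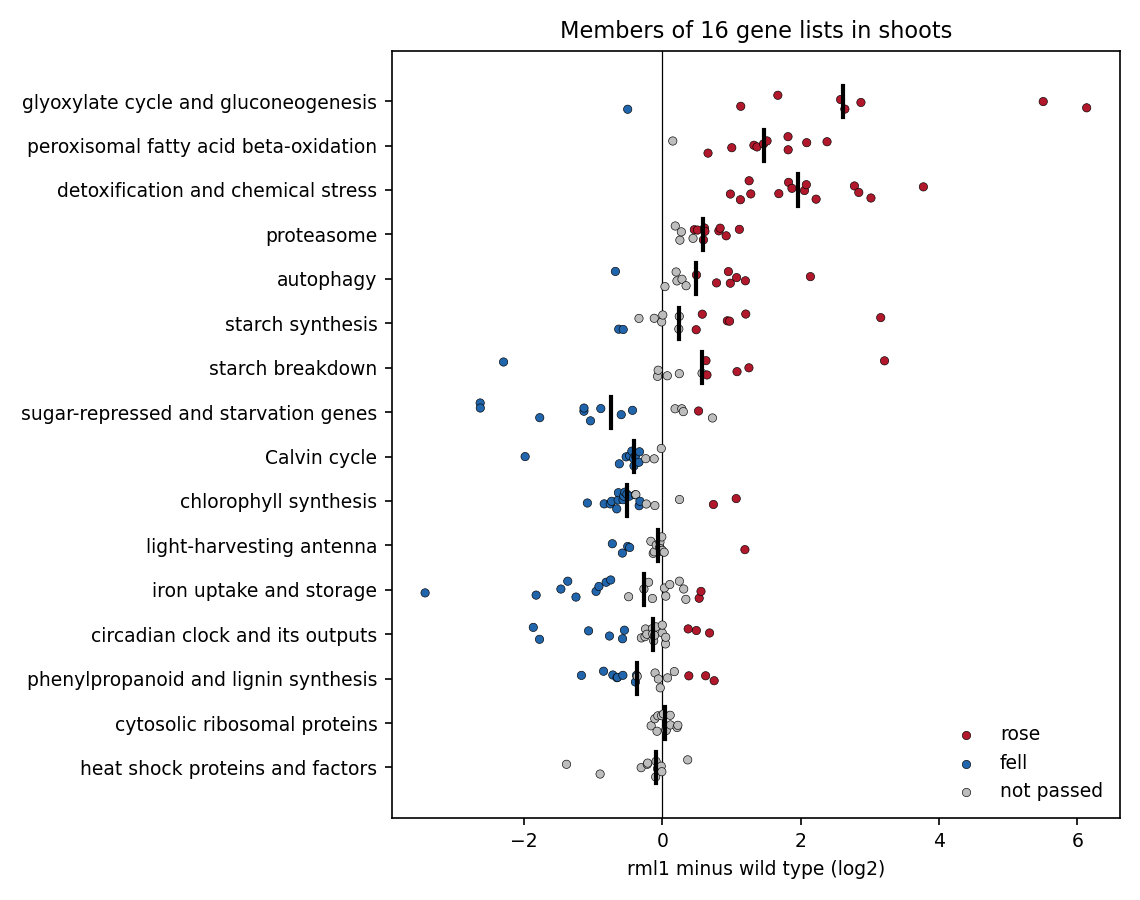
Each point is 1 gene of 1 of 16 lists, placed by its rml1 minus wild type difference (log2), and black bars mark list medians. Red genes rose, blue genes fell and grey genes did not pass; the medians run from 2.61 for the glyoxylate cycle and gluconeogenesis list to -0.743 for the sugar-repressed list.

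Most measured genes listed for the Calvin cycle and for chlorophyll synthesis fell in rml1, nearly all by less than 2-fold. Of 13 Calvin cycle genes 10 fell and 3 did not pass, with a median of -0.41, and 6 fell without rml1 replicate 3. The share that fell was 76.9%, against 24.6% of all loci at the same levels. The exception in size was CP12-2, a small protein that binds 2 Calvin cycle enzymes in the dark, at 8.18, 8.64 and 7.79 in rml1 and at 10.48, 9.99 and 10.08 in the wild type (-1.98, SE 0.23, adjusted p = 0.00134). Sedoheptulose bisphosphatase, encoded by SBPASE, fell by 0.52 (SE 0.09). Of 21 chlorophyll synthesis genes 15 fell and 2 rose, with a median of -0.51, and 11 to 15 fell with 1 array left out. The share that fell was 71.4%, against 22.8% of all loci at the same levels. CH1, the oxygenase that makes chlorophyll b, was at 8.52, 8.28 and 8.40 in rml1 and at 9.33, 9.53 and 9.58 in the wild type (-1.08, SE 0.11). HEMA1, the first committed enzyme of the pathway, was at 9.47, 9.35 and 9.46 in rml1 and at 10.37, 10.15 and 10.29 in the wild type (-0.84, SE 0.10). The 2 rises were in PORA, the protochlorophyllide oxidoreductase of dark-grown seedlings (1.07, SE 0.12), and FC1 (AT5G26030), a ferrochelatase that sends porphyrin to haem (0.74, SE 0.09), while its paralog FC2 (AT2G30390) fell by 0.75 (SE 0.11).

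Of 16 antenna genes 4 fell and 1 rose, and the median difference was -0.06. The list was called at 31.2%, below the 52.5% of all loci at the same levels. Its share of falls, 25%, was near their 24.2%. The count of falls was 2 without rml1 replicate 1, rml1 replicate 3 or wild type replicate 3. LHCB4.3, a variant antenna protein of strong light, was at 9.02, 8.93 and 8.97 in rml1 and at 7.71, 7.83 and 7.80 in the wild type (1.19, SE 0.08). Of 7 light stress genes, some of them also antenna genes, 3 rose and 2 fell (71.4% called, against 44.8% of all loci at the same levels). With 1 array left out 2 or 3 of the light stress genes rose and 1 or 2 fell. ELIP1, an early light-induced protein of light stress, was at 12.34, 12.16 and 12.38 in rml1 and at 8.94, 9.39 and 9.98 in the wild type, a 7.24-fold rise (2.86, SE 0.24). The wild type samples differed from one another by about 1 log2 unit at ELIP1, and all lay below rml1. NPQ1, violaxanthin de-epoxidase, which switches leaves to heat dissipation, fell by 1.27 (SE 0.13), and NCED4, a carotenoid cleavage dioxygenase, was at 5.05, 5.52 and 4.76 in rml1 and at 8.71, 8.39 and 8.41 in the wild type (-3.39, SE 0.20, adjusted p = 0.000191).

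Most genes of the circadian clock did not pass, and a few fell by more than 2-fold. Of 22 clock genes and outputs 6 fell, 3 rose and 13 did not pass (40.9% called, against 37.3% of all loci at the same levels), with a median of -0.14, and just 1 rose when rml1 replicate 1 or 3, or wild type replicate 1 or 2, was left out. RVE1, a MYB factor that links the clock to growth, was at 5.83, 5.90 and 5.63 in rml1 and at 7.50, 7.57 and 7.90 in the wild type (-1.87, SE 0.13, adjusted p = 0.000298). CDF1 (AT5G62430), a repressor of flowering genes, was at 4.61, 5.18 and 4.53 in rml1 and at 6.54, 6.31 and 6.80 in the wild type (-1.78, SE 0.20). CCA1, a core morning repressor, was at 7.34, 7.25 and 7.36 in rml1 and at 8.17, 8.06 and 8.03 in the wild type (-0.76, SE 0.09). No rml1 sample reached the lowest wild type sample at these genes. The labels do not give the time of day of the harvest, so a difference in harvest time was not tested. Of 13 light signalling and shade genes 5 rose and 2 fell (53.8% called, against 39.1% of all loci at the same levels). With 1 array left out 2 to 4 of them rose and 1 or 2 fell. Among these genes, PHYA, the far-red photoreceptor, rose by 1.4 (SE 0.12), PIF3, a factor that represses greening in darkness, rose by 1.45 (SE 0.16), and PIF4, a related growth-promoting factor, fell by 0.92 (SE 0.15).

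Of 21 genes of iron uptake and storage 9 fell, 2 rose and 10 did not pass, with a median of -0.27. At the same levels 13% of all loci fell and 16.7% rose. The rises were PYE (0.53, SE 0.14), a regulator of iron deficiency, and the ferritin FER2 (0.56, SE 0.14). Without rml1 replicate 3 or wild type replicate 2, 6 fell, and the rises numbered 0 or 1 with any 1 array left out. FRO6, a ferric reductase of the leaf plasma membrane, was at 3.15, 1.65 and 2.86 in rml1 and at 6.31, 5.85 and 5.78 in the wild type (-3.43, SE 0.37, adjusted p = 0.00111). Rml1 replicate 2 was the lowest of these values, below the lower quartile of its array, so the size of the fall is uncertain. FRO7, its neighbour in the genome and the chloroplast reductase, was at 4.87, 4.51 and 4.34 in rml1 and at 6.32, 5.80 and 5.71 in the wild type (-1.37, SE 0.20). NAS1 and NAS4, which make the metal carrier nicotianamine, fell by 1.82 (SE 0.22) and 1.47 (SE 0.25), and the ferritin FER3, which stores iron in plastids, fell by 1.25 (SE 0.12). Among 10 copper protein and metallothionein genes 4 rose, 2 fell and 4 did not pass (60% called, against 51.4% of all loci at the same levels). MT2A, a metallothionein, was at 11.99, 11.86 and 12.07 in rml1 and at 10.09, 9.86 and 9.83 in the wild type (2.05, SE 0.11, adjusted p = 0.000152). CSD1, the cytosolic copper/zinc superoxide dismutase, rose by 0.91 (SE 0.08) and the plastid enzyme CSD2 fell by 0.48 (SE 0.09), while the copper transporter COPT2 fell by 0.95 (SE 0.17). SUFE2, which activates the cysteine desulfurase of iron-sulfur cluster assembly in plastids, was at 8.35, 7.93 and 8.19 in rml1 and at 3.74, 3.85 and 3.84 in the wild type, a 20.4-fold rise (4.35, SE 0.12, adjusted p = 3.29e-05). It was among the loci with the smallest p of the whole comparison.

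Wall-loosening proteins and water channels serve cell expansion. Among them xyloglucan enzymes and water channels had more falls than rises, while expansins went in both directions. Of 33 xyloglucan endotransglucosylase/hydrolase (XTH) genes, which cut and rejoin wall polymers, 12 fell and 3 rose, with medians of -0.20 for the family and -0.0316 for all loci. The share of XTH genes that fell was 36.4%, against 14.9% of all loci at the same levels. XTH6 was at 7.54, 7.66 and 7.27 in rml1 and at 10.79, 10.04 and 10.36 in the wild type (-2.91, SE 0.20, adjusted p = 0.00027). XTH17 and XTH24 fell by 2.34 (SE 0.24) and 1.95 (SE 0.30), and TCH4, a touch-induced member, fell by 1.69 (SE 0.13). XTH19 went the other way and was at 8.93, 9.74 and 9.65 in rml1 and at 4.81, 7.49 and 5.01 in the wild type (3.67, SE 0.68). Its wild type replicate 2 stood more than 2 log2 units above the other wild type samples, though still below rml1. Of 14 listed expansins 5 fell (35.7%, against 21.1% of all loci at the same levels) and 3 rose (21.4%, against 26.2%). Without rml1 replicate 1 or rml1 replicate 3, 3 fell and 3 rose. Of 33 expansins and expansin-like proteins found by symbol 7 fell and 5 rose (36.4% called, against 31.1% of all loci at the same levels). With 1 array left out 4 or 5 of these fell and 5 rose. EXPA5 fell by 1.83 (SE 0.19) and EXPA10 rose by 1.49 (SE 0.11). Of 34 aquaporins 14 fell (41.2%, against 16.9% of all loci at the same levels) and 4 rose, and 9 fell without rml1 replicate 2 or rml1 replicate 3. DELTA-TIP, a water channel of the vacuole, was at 10.41, 10.66 and 10.25 in rml1 and at 12.14, 12.07 and 12.08 in the wild type (-1.66, SE 0.12). GAMMA-TIP, also of the vacuole, fell by 1.44 (SE 0.14), PIP1;5 of the plasma membrane fell by 1.55 (SE 0.12), and NLM1, of the NIP subfamily, rose by 1.82 (SE 0.21).

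Lists of the leaf surface and of lignin synthesis held changes in both directions. Among 8 trichome fate genes 3 fell and 1 rose (50% called, against 25.5% of all loci at the same levels). MYB0, better known as GLABRA1, the MYB factor that starts trichomes, was at 2.49, 2.59 and 2.05 in rml1 and at 4.05, 3.95 and 4.27 in the wild type (-1.71, SE 0.16), and its relative MYB23 fell by 1.47 (SE 0.23). GL2 and TTG1, which act in the same pathway, fell by 0.58 (SE 0.11) and 0.44 (SE 0.08), and TTG2, a WRKY factor of trichomes and seed coat, rose by 1.19 (SE 0.14). The level of MYB0 in rml1 was low, near the lower quartile of these arrays. Of 16 cuticle and wax genes 3 rose and 3 fell (37.5% called, against 42.5% at the same levels), and 1 rose without rml1 replicate 1 or rml1 replicate 3. LTP2, a lipid transfer protein, was at 12.67, 12.67 and 12.87 in rml1 and at 10.25, 10.83 and 10.25 in the wild type (2.29, SE 0.17), and CER1, of wax alkane synthesis, fell by 1.32 (SE 0.20). FAR1 (AT5G22500), a fatty acyl-CoA reductase that makes fatty alcohols, was at 9.03, 8.64 and 9.09 in rml1 and at 5.41, 5.48 and 4.85 in the wild type, a 12.8-fold rise (3.67, SE 0.20, adjusted p = 0.000169). Of 17 phenylpropanoid and lignin genes 8 fell (47.1%, against 19.8% of all loci at the same levels) and 3 rose, with a median of -0.36 and the largest fall in HCT, a transferase of lignin precursors (-1.17, SE 0.11). MYB20, a factor of secondary wall formation, was at 4.0, 4.09 and 4.01 in rml1 and at 6.77, 6.38 and 6.45 in the wild type (-2.50, SE 0.12, adjusted p = 0.000122).

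Transcription factor families, gathered by gene symbol, differed in the direction of their calls. Of 99 NAC factors, a plant-specific family with many stress and senescence regulators, 27 rose (27.3%) and 5 fell (5.05%). At the same levels 11.3% of all loci rose and 9.45% fell. Of all loci with a symbol 19.1% rose and 13.7% fell. The share of NAC factors called, 32.3%, was near the 32.8% of loci with a symbol, so against those the family differed in direction. NAC032 was at 7.57, 7.36 and 7.58 in rml1 and at 5.76, 5.20 and 5.39 in the wild type (2.05, SE 0.15), ATAF1 rose by 1.87 (SE 0.16) and NAC6, a senescence regulator also called ORE1, by 1.41 (SE 0.17). NAC032 and ATAF1 are also counted in the detoxification and chemical stress list. The falls in this family numbered 2 without rml1 replicate 1 or rml1 replicate 3 and 3 without wild type replicate 3. Of 47 AP2/ERF factors 18 rose and 2 fell (1 to 3 with an array left out), with ERF11 at 6.05, 6.72 and 6.09 in rml1 and at 4.53, 4.04 and 4.76 in the wild type (1.84, SE 0.24). The share of AP2/ERF factors called was 42.6%, against 27.7% of all loci at the same levels and 32.8% of loci with a symbol. Of 71 WRKY factors 17 rose and 5 fell, with 11 rising without wild type replicate 3 and 1 fall without rml1 replicate 1 or 3 or wild type replicate 3, and WRKY18, a defence regulator, rose by 1.39 (SE 0.17). The share of WRKY factors called was 31%, against 21.8% of all loci at the same levels and 32.8% of loci with a symbol. Of 39 homeobox factors 11 rose and 1 fell (30.8% called, against 31% of all loci at the same levels). Just 6 rose without rml1 replicate 1 or rml1 replicate 3, and 7 without rml1 replicate 2. The leading member was HB-1 (AT3G01470) at 9.76, 9.67 and 9.90 in rml1 and at 8.40, 8.33 and 7.99 in the wild type (1.54, SE 0.13).

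Other families had more falls. Of 22 TCP factors, regulators of leaf growth, 7 fell and 1 rose, and 3 or 4 fell without rml1 replicate 1, 2 or 3 or wild type replicate 3. TCP14 was at 6.71, 6.87 and 6.63 in rml1 and at 7.49, 7.85 and 7.94 in the wild type (-1.02, SE 0.14), and TCP4, which drives leaf maturation, fell by 0.59 (SE 0.10). Of 38 LBD factors 5 fell and 1 rose. LBD39 and its relative LBD38, repressors in nitrogen metabolism, fell by 2.33 (SE 0.17) and 0.96 (SE 0.10). Of 31 BBX zinc finger proteins, many of them light regulators, 8 fell and 3 rose. Without rml1 replicate 3 these counts were 5 and 0, while none rose without rml1 replicate 1 and 1 without wild type replicate 3. The shares called in the TCP, LBD and BBX families were 36.4%, 15.8% and 35.5%. All loci at the same levels were called at 33.8%, 14.4% and 36.1%, so the shares called in these families were near theirs. The shares that fell were 31.8%, 13.2% and 25.8%, against 13.1%, 7.55% and 16% at the same levels. These shares rest on few genes in each family, and a difference in direction was not tested. BBX16 was at 5.34, 5.62 and 5.32 in rml1 and at 8.02, 7.32 and 7.12 in the wild type (-2.06, SE 0.23). Of 40 cysteine-rich receptor kinases 9 fell and 3 rose (30% called, against 18.1% of all loci at the same levels), and 5 rose without wild type replicate 1. CRK21 was at 5.34, 5.09 and 5.13 in rml1 and at 7.90, 7.58 and 7.52 in the wild type (-2.48, SE 0.13). HEC1, a basic helix-loop-helix factor of flower and meristem development, was at 8.85, 8.68 and 8.94 in rml1 and at 4.96, 5.82 and 5.31 in the wild type, an 11-fold rise (3.46, SE 0.21). RL5 and RL3, small MYB-like proteins of the RADIALIS type, fell by 1.90 (SE 0.09) and 2.41 (SE 0.12).

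**Figure D5:**
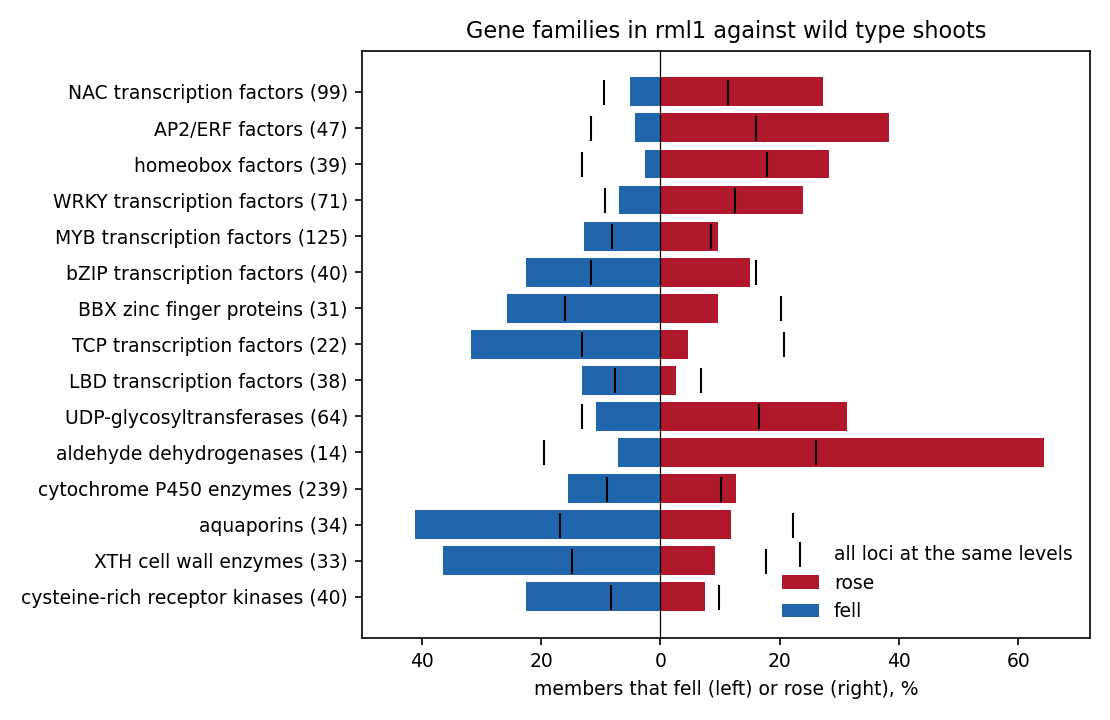
Bars give the percentage of members of 15 gene families that fell (blue, left) or rose (red, right) in rml1, with the number of members in brackets, and black ticks give the percentages over all loci of the same classes of level. NAC factors had 27.3% rising and 5.05% falling, and aquaporins 11.8% rising and 41.2% falling.

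Some of the strongest changes were at loci that carry no symbol in the gene table, although such loci changed less often than loci with a symbol. Loci with a symbol passed at 32.8% (10393 loci) and loci known by their code alone at 19.1% (19527 loci), and the 30 largest rises and 30 largest falls held both kinds. Changes of at least 2-fold were found at 7.18% and 3.58% of them. Their median levels in rml1 also differed, 5.07 with a symbol and 3.15 without, and these shares were not matched for level. AT2G18193 was at 6.34, 6.07 and 6.88 in rml1 and at 2.40, 2.24 and 2.32 in the wild type, a 17.3-fold rise (4.11, SE 0.20, adjusted p = 0.000121). AT5G09570, AT1G43910 and AT4G12735 rose 16.7-fold, 15.4-fold and 15.2-fold (4.06, SE 0.22, 3.94, SE 0.28, and 3.93, SE 0.25). Among the falls, AT1G49500 was at 6.45, 6.66 and 5.71 in rml1 and at 9.81, 9.60 and 9.74 in the wild type (-3.44, SE 0.23), and AT3G46490 fell by 3.27 (SE 0.24). Non-overlap of the genotypes was a condition for a place among these largest changes, and 42.1% of all loci met it. Among named genes, ORP4C, an oxysterol-binding protein relative, was at 8.98, 8.81 and 9.06 in rml1 and at 4.21, 5.46 and 3.77 in the wild type, a 22.2-fold rise (4.47, SE 0.39). GASA1, a small gibberellin-regulated peptide, was at 7.69, 7.95 and 7.96 in rml1 and at 11.05, 10.76 and 10.86 in the wild type (-3.02, SE 0.12, adjusted p = 8.42e-05), whereas its relative GASA4 was at 11.54, 11.53 and 11.50 in rml1 and at 9.72, 10.32 and 10.05 in the wild type (1.5, SE 0.15). PGL5, a 6-phosphogluconolactonase gene, was at 3.21, 3.56 and 3.15 in rml1 and at 7.14, 6.38 and 6.60 in the wild type (-3.40, SE 0.21). At both GASA1 and PGL5 the falls exceeded the spread of either genotype many times.

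Complete switches between low and high array levels were rare. A locus above the upper quartile of all 3 rml1 arrays and below the median of all 3 wild type arrays was found 5 times, at SUFE2, TH8, AT2G18193, IAA20 and ABCB4. The reverse pattern was also found 5 times, at PPT2, PGL5, AT3G01345, AT1G13650 and AT1G54740. With the lower quartile in place of the median as the low limit, no locus met either pattern. Loci next to each other seldom formed long stretches of 1 direction. The longest held 6 consecutive loci, AT5G16960 to AT5G17020, which rose and include AER, although both end loci no longer passed when single arrays were left out. Stretches of 4 loci that all fell at least 2-fold ran from AT2G04780 to AT2G04800, from AT2G29280 to AT2G29310 and from AT4G00950 to AT4G00970, and cross-reaction of their probes was not tested either.

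Of 88 loci annotated as microRNA genes 9 rose (10.2%, against 13.3% of all loci) and none fell with limma, while 17 had a positive and 6 a negative difference at an unadjusted p under 0.05. Their median level was low, 2.11 in rml1 and 2.18 in the wild type. In the class of level that holds these medians 0.769% of all loci rose and 4.81% fell. A share matched to the level of each microRNA locus was not computed. The array reads the precursor region and not the mature microRNA. MIR156c, of the family that keeps shoots in the juvenile phase, was at 6.75, 6.58 and 6.80 in rml1 and at 5.06, 5.01 and 5.10 in the wild type (1.66, SE 0.09, adjusted p = 0.00018). MIR162a and MIR167a rose by 1.41 (SE 0.23) and 1.39 (SE 0.18). The trans-acting siRNA precursor TAS3, whose products repress auxin response factors, was at 6.17, 6.45 and 6.07 in rml1 and at 8.07, 7.86 and 7.93 in the wild type (-1.72, SE 0.12, adjusted p = 0.000289). Mutant and wild type samples did not overlap at MIR156c or TAS3. Of 67 plastid-encoded loci 4 rose and 6 fell (14.9% called, against 23.9% of all loci), and of 33 mitochondrial loci 6 rose and none fell with limma, while 7 had a positive and 1 a negative difference at an unadjusted p under 0.05.

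The remaining lists had shares of calls below those of all loci at their levels, or within a few percentage points of them. Of 12 cytosolic ribosomal protein genes none passed with limma, 2 had a positive difference at an unadjusted p under 0.05, and their differences ran from -0.16 to 0.22, while 53% of all loci of their class of level passed. Of 12 genes listed for heat shock proteins and their regulators none passed with limma or at an unadjusted p under 0.05 (1 rose without wild type replicate 1), with differences of -1.39 to 0.37 and a median standard error of 0.24, against 0.118 over all loci, so moderate changes could pass unseen. In the family of heat shock factors gathered by symbol, 4 of 21 rose and none fell with limma (19% called, against 21.9% at the same levels), by at most 0.94, while 7 had a positive and 1 a negative difference at an unadjusted p under 0.05. Of 23 genes of shoot meristem and leaf development 1 rose and 3 fell (0 rose without rml1 replicate 3 or wild type replicate 2 or 3), among them CUC2, a boundary factor that fell by 0.43 (SE 0.08). Of 14 genes of the stomatal lineage 3 rose, and 0 or 1 rose without rml1 replicate 1, 2 or 3 or wild type replicate 1 or 3. Of 19 cold and dehydration genes 3 rose and 2 fell (26.3% called, against 25.2% at the same levels), 1 fall without rml1 replicate 1, with COR47, a dehydrin, at 5.50, 5.96 and 5.61 in rml1 and at 7.53, 7.82 and 8.07 in the wild type (-2.11, SE 0.17) and RD20, a caleosin of drought, up by 1.55 (SE 0.15). THI2.2, an antimicrobial thionin, fell by 2.60 (SE 0.22).

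The single root arrays were set beside these shoot results. Of the 797 loci that rose at least 2-fold in shoots, 628 (78.8%) were also higher in the rml1 root than in the wild type root, and of the 649 that fell, 169 (26%) were higher, against 48.5% of all loci. Roots had 1 array per genotype, so the root differences have no replicate error, and the shoots and roots may come from the same seedlings. By list, all 8 genes of the glyoxylate cycle and gluconeogenesis, 10 of 11 of beta-oxidation, 13 of 13 proteasome genes and 11 of 14 detoxification genes were higher in the rml1 root. The Calvin cycle list, in which 10 of 13 genes fell in shoots, had 11 of 13 higher in the rml1 root, with a median level of 7.46 in the rml1 root and 7.24 in the wild type root.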

How the data were processed

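The values were measured on Affymetrix Agronomics tiling arrays. The authors deposited log2 values, which the submitters' processing notes credit to RMA. Its version, the assignment of probes and the build are not given in the sources read here. The values give no counts and no depth, and the number of arrays limits the precision. Of 30237 entries, those of 1 locus were averaged to 29920 loci, and 29398 loci matched a RefSeq gene table (TAIR10.1) used for names and gene order. The test was that of limma 3.58.1, run in R 4.3.3 with lmFit and eBayes (genotype as the only term, two-sided, adjusted over all loci). The labels call the 3 shoot samples of a genotype biological replicates. The fit was tested on simulated data.

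The gene lists (35, with 471 members, 456 measured), the families (27, gathered by symbol or synonym) and the naming rule were chosen with earlier results of these data known. List members without a name in the gene table were dropped before their values were seen. After values were seen, family patterns that caught unrelated genes were corrected, 1 wrongly matched gene was removed from the aquaporins, and families for trehalose and MATE carriers were dropped because the pattern caught other enzymes or few members. The low limit for switched loci was loosened after the first gave none. Genes were named for the largest changes, the smallest p, the highest levels and the strongest members of each list or family. The largest changes were taken among called loci whose genotypes did not overlap. Their mean also had to exceed that of the median locus in either genotype. Other list members and the non-coding loci named were chosen after their values were seen. Classes of level are 10 equal sets of loci by mean over the 6 arrays. Alternatives were other normalizations, a filter, variance models, array weights, a replicate block, single entries and leaving out each array. Same-numbered samples did not deviate together (Pearson's r of -0.0346, -0.00273 and -0.0981), so the numbers were not taken to pair samples. Matplotlib 3.10.9 under Python 3.11.15 made the figures.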

Additional observations from a re-analysis of the deposited data

Results flagged for a closer look

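At 10 of the genes and loci followed singly, all shoot samples moved one way and the single pair of root arrays the other way by at least 1 log2 unit. The difference between organs was not tested, since roots had 1 array per genotype. XTH24, a wall enzyme, fell by 1.95 in rml1 shoots and differed by 2.53 in the rml1 root against the wild type root. TCH4, of the same family, fell by 1.69 in shoots and differed by 2.42 in the root. ASN1 fell by 2.63 in shoots and differed by 1.54 in the root. The other 7 rose in shoots and were lower in the rml1 root. NLM1 rose by 1.82 in shoots with a root difference of -2.33, MYB10 by 1.85 with -2.44, KAT5 by 1.46 with -1.56, SWEET13 by 1.35 with -1.76, CYP81D11 by 2.78 with -1.35, AT4G29020 by 1.01 with -1.21, and CML43, a calmodulin-like protein, by 1.09 with -1.15.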

How the results depend on the processing

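The number of changed loci was 6933 with quantile normalization (3553 up and 3380 down, 51.2% up against 55.6% as reported), 7031 with median centring, 7459 when loci at or below the median level were dropped, 7460 with the trend and robust options, 7850 with array weights and 7221 with each table entry tested by itself. With 1 array left out it was 4508 to 6480 (2526 to 3549 up and 1982 to 2931 down), and changes of at least 2-fold numbered 1291 to 1560 (727 to 875 up and 564 to 685 down). Leaving out an array lowers the number of samples, and the smallest count came without rml1 replicate 3. With quantile normalization 702 loci rose and 734 fell at least 2-fold, the opposite order to the 797 and 649 reported, and 6177 of the 7138 loci stayed called. The fit with the replicate number as a replicate block called 5189 loci (2851 up and 2338 down), 5000 of them also called without it, and 1444 of at least 2-fold. No rml1 sample correlated best with the wild type sample of its own number. Of 390 called genes followed singly, none changed sign where a setting gave a value, which was for 350 with the level filter, 4 with single entries and all 390 with the others. The number that no longer passed was 20 with quantile normalization, 49 with the block, 3 with array weights, 1 each with median centring and with the trend and robust options, and 37 to 72 with 1 array left out. No detection call was used, and the effect of array background on folds of low loci such as FRO6 and MYB0 was not tested.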

Other observations

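Calmodulin-like proteins, which sense calcium, had 4 rises among 14 members found by symbol, each of at least 2-fold, a share of 28.6% called against 29.1% of all loci at the same levels. CML38 was at 4.44, 5.98 and 5.17 in rml1 shoots and at 3.25, 3.24 and 3.17 in wild type shoots (1.98, SE 0.34, adjusted p = 0.00655 with limma), so the rml1 samples varied by more than 1 log2 unit and all lay above the wild type. CML11 and CML23 rose by 1.48 (SE 0.26) and 1.27 (SE 0.16).

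Among the loci with the highest array levels that changed at least 2-fold, ROC5, a cyclophilin, was at 11.50, 11.42 and 11.54 in rml1 and at 10.32, 10.61 and 10.41 in the wild type (1.04, SE 0.10). AZI1, a lipid transfer-like protein of systemic immunity, rose by 1.4 (SE 0.13), and ENODL17, an early nodulin-like protein, fell by 1.1 (SE 0.11). CIPK20, a kinase of calcium signalling, was at 4.49, 5.65 and 4.75 in rml1 and at 7.55, 7.89 and 7.92 in the wild type (-2.82, SE 0.29).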
